A study of Homo sapiens with 132 samples.

Results

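The 8 AP-1 family genes FOS, FOSB, FOSL1, FOSL2, JUN, JUNB, JUND and ATF3 were followed through RNA-seq libraries of 4 gastric cancer cell lines treated with EGF, cetuximab, trastuzumab and afatinib. The members were chosen by name, each symbol was matched to 1 Ensembl identifier, and they are 8 of the 65217 identifiers in the count files. AP-1 is a transcription factor made of a pair of basic leucine zipper proteins. FOS proteins cannot pair with themselves and need a JUN protein, whereas JUN proteins also pair with each other, and the pair binds the TRE motif TGACTCA or, with ATF and CREB proteins, the CRE motif TGACGTCA. Growth factor receptors such as EGFR and HER2 raise FOS transcription through RAS, MEK and ERK within minutes, and FOSL1 and JUN follow, so the family is a common readout of ErbB receptor signalling in epithelial tumour cells. ATF3 belongs to the ATF/CREB branch, pairs with JUN proteins and is known for its induction by stress.

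The members lie on 5 chromosomes (GRCh38, GENCODE 29). FOS lies at chr14:75278774-75282230 on the plus strand and FOSL2 at chr2:28392448-28417312 on the plus strand. FOSL1 lies at chr11:65892049-65900573 on the minus strand. JUN (chr1:58780788-58784327, minus strand) and ATF3 (chr1:212565334-212620777, plus strand) share a chromosome. FOSB (chr19:45467995-45475179, plus strand), JUNB (chr19:12791496-12793315, plus strand) and JUND (chr19:18279760-18281622, minus strand) share another.

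The promoters of 3 members are shown as examples of where letters of the CRE motif stand in this family. They are RefSeq sequences of GRCh38.p14, read 5′ to 3′ on the strand of the gene, cut to the bases before both the RefSeq and the GENCODE start. Capitals mark the CRE core TGACGT or its reverse complement ACGTCA, the full CRE TGACGTCA, or the variant TGACATCA known from the JUN promoter. The FOS stretch is chr14:75278578-75278773, the ATF3 stretch chr1:212565157-212565333 and the JUND stretch chr19:18281623-18281872.
FOS: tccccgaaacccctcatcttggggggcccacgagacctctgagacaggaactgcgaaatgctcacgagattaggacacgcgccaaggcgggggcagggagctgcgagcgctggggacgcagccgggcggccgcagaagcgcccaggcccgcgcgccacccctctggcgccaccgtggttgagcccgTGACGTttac
ATF3: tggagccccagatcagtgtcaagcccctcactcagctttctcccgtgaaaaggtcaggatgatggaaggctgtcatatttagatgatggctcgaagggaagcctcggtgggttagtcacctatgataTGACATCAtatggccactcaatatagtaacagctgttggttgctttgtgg
JUND: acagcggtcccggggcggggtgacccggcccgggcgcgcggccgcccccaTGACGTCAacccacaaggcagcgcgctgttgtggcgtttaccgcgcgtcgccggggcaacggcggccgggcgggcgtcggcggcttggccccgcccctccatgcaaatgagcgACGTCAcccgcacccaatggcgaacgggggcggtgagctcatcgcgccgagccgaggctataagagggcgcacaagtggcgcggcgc
Counted back from the RefSeq start, the first capital stood 64 bases away in FOS, 123 bases away in ATF3, and 200 and 87 bases away in JUND. The JUND match at 200 was the full CRE, which itself holds the core on each strand. FOSB had the core TGACGT 60 bases before its start. JUN had TGACATCA at 67 bases and FOSL2 had TGACGT at 66 bases, both within sequence that GENCODE counts as transcribed. Both strands were searched over the 250 bases before the start, and 7 of the 8 members had an entry, all but FOSL1. JUNB had none of the motifs in its entry. ATF3 had a further entry at another start, in which none of the motifs was found. Over 35116 promoters of that length, TGACTCA was found in 4.2%, TGACGTCA in 1.65%, the core TGACGT in 7.1% and TGACATCA in 2.37%. None of the 7 members had TGACTCA or a CArG box, the SRF site found in 1.16% of promoters, within these 250 bases.

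The libraries formed 44 groups of 3 replicates, from polyadenylated RNA of MKN1, MKN7, NCI-N87 and Hs746T, which are established human lines cultured from gastric tumours. MKN1 and Hs746T were left untreated or were given EGF at 5 ng/ml, cetuximab at 1 µg/ml, EGF with cetuximab, trastuzumab at 5 µg/ml, afatinib at 0.5 µM, or trastuzumab with afatinib. MKN7 and NCI-N87 were left untreated or were given trastuzumab, afatinib or both at the same doses. Every group was harvested after 4 h and after 24 h, in medium with serum that had been changed 2 h before treatment, and the controls were untreated cells without drug vehicle. EGF is the ligand of EGFR, cetuximab is an antibody to EGFR, trastuzumab is an antibody to HER2, and afatinib is an irreversible inhibitor of the ErbB kinases.

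Total counts per library ranged from 25832557 to 69434151, with a median of 50725775, so that 3 counts correspond to between 0.0432 and 0.116 CPM (counts scaled to the library total). FOSB and JUNB were listed at 0 in every library. So were 1970 of 19674 protein-coding identifiers, among them genes that every cell uses such as EIF4A1, EIF4G1, TUBA1B and HNRNPA1, so the 0 was not read as absent expression. JUNB shares 259 exon bases with HOOK2 on the opposite strand, and FOSB overlaps ERCC1 without shared exon bases. The other 6 members passed the filter on low counts in all 4 lines. The summed level of 6 epithelial markers was 717 to 1042 CPM in Hs746T and 4471 to 25917 CPM in the other lines. The keratin genes KRT8, KRT18 and KRT19 made up most of that sum in the other lines. CDH1, which encodes E-cadherin, was at 0.382 to 6.01 CPM in Hs746T and 0.747 to 6.04 CPM in MKN1, the EPCAM median was 35.5 CPM in Hs746T and 25.1 CPM in MKN1, and the CLDN4 median was 308 CPM and 7.44 CPM. The summed level of 6 mesenchymal markers was 3615 to 6195 CPM in Hs746T and at most 2555 CPM in the other lines, and 5 blood and endothelial markers summed to 80.2 to 275 CPM in Hs746T, nearly all from PECAM1, and to at most 27.8 CPM elsewhere, with CD68 listed at 0. ERBB2, which encodes HER2, had a median of 13690 CPM in NCI-N87 and 4683 CPM in MKN7, against 138 CPM in MKN1 and 84.3 CPM in Hs746T. Replicate 1 of Hs746T stood apart for the members: in all 14 groups it had the lowest FOSL1 and the highest FOS, FOSL2 and ATF3 levels. Replicate 3 of MKN7 had the highest FOSL1 level in all 8 groups.

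In untreated cells FOSL1 had the widest range of group means between lines. FOSL1 encodes FRA-1, a FOS protein without the transactivation domain of FOS that is known for its abundance in invasive tumour cells. At 4 h it stood at 881, 1478 and 1481 CPM in Hs746T, at 509, 584 and 677 CPM in MKN7, at 379, 405 and 420 CPM in MKN1, and at 109, 115 and 152 CPM in NCI-N87. The 4 lines did not overlap. The difference between MKN7 and MKN1 did not pass the test (log2FC of MKN1 vs. MKN7 −0.56 ± 0.31 SE, p.adjust = 0.113), whereas MKN1 exceeded NCI-N87 (log2FC 1.68 ± 0.32, p.adjust = 2.4e-06). The step from MKN7 to Hs746T passed it (log2FC of MKN7 vs. Hs746T −1.12 ± 0.31, p.adjust = 0.00115) but was lost when replicate 2 was left out of every group (log2FC −0.92, p.adjust = 0.0761). At 24 h the means were 1152 ± 296 CPM in Hs746T, 338 ± 156 CPM in MKN7, 89.5 ± 31.2 CPM in MKN1 and 86.5 ± 6.43 CPM in NCI-N87 (SD, n = 3), and MKN1 and NCI-N87 could not be separated (log2FC 0.05 ± 0.31, p.adjust = 0.9). Line and culture medium cannot be told apart for Hs746T, which was grown in a different medium.

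**Figure D1:**
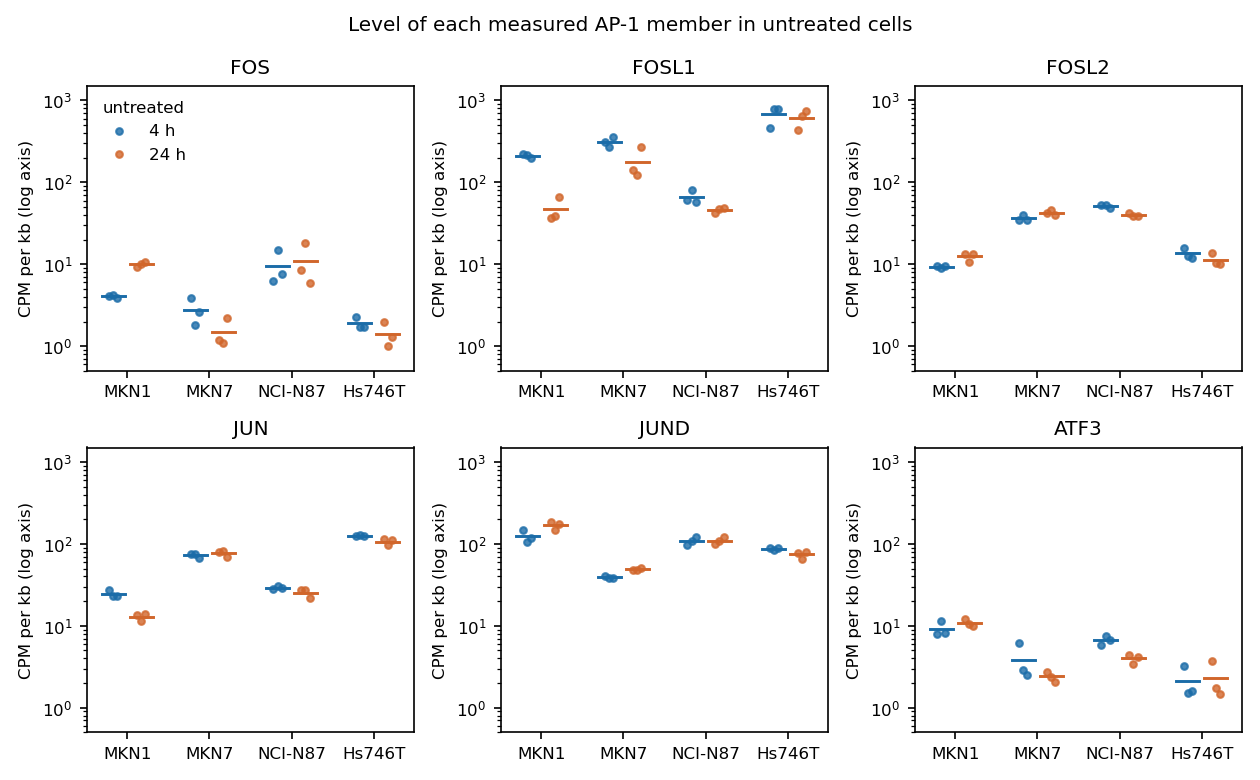
Levels of the 6 measured members in untreated cells, 1 panel per gene, in CPM per kb of merged exon length on a log axis. Points are single libraries (3 per line and time, blue 4 h and orange 24 h) and short lines are means. Before division by length, FOSL1 spans from 69.3 CPM in MKN1 to 1481 CPM in Hs746T, while FOS stays below 59 CPM in every line.

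FOS, the classical immediate early gene, was low in all lines. NCI-N87 had 20.3, 24.9 and 48.6 CPM at 4 h, MKN1 had 12.7, 13.5 and 13.7 CPM, MKN7 had 5.9, 8.37 and 12.6 CPM and Hs746T had 5.62, 5.62 and 7.33 CPM. NCI-N87 lay above the other lines at 4 h, while MKN7 overlapped with Hs746T (log2FC of MKN7 vs. Hs746T 0.53 ± 0.36, p.adjust = 0.187) and stayed below MKN1 without passing the test (log2FC of MKN1 vs. MKN7 0.57 ± 0.35, p.adjust = 0.154). The excess of NCI-N87 over MKN1 (log2FC of MKN1 vs. NCI-N87 −1.24 ± 0.35, p.adjust = 0.00122) was lost without replicate 2 (log2FC −0.73, p.adjust = 0.0884). At 24 h MKN1 reached 32.6 ± 2.19 CPM and NCI-N87 35.0 ± 21.0 CPM (SD, n = 3), against 4.87 ± 1.94 CPM in MKN7 and 4.61 ± 1.63 CPM in Hs746T. The lines then formed a higher and a lower pair, and neither pair differed internally (MKN1 vs. NCI-N87 log2FC −0.10 ± 0.34, p.adjust = 0.8; MKN7 vs. Hs746T log2FC 0.06 ± 0.37, p.adjust = 0.912).

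The remaining members had other orders. FOSL2, which encodes FRA-2, was highest in NCI-N87 (371 ± 19.1 CPM at 4 h) and MKN7 (261 ± 22.2 CPM), and lower in Hs746T (86.4, 91.1 and 114 CPM) and MKN1 (66.7 ± 2.56 CPM). NCI-N87 exceeded MKN7 by less than the fold limit of 1 on the log2 scale (log2FC of MKN7 vs. NCI-N87 −0.51 ± 0.14). JUN was highest in Hs746T with 445, 447 and 452 CPM at 4 h, followed by MKN7 (259 ± 17.1 CPM), NCI-N87 (103 ± 4.15 CPM) and MKN1 (86.5 ± 8.07 CPM). MKN1 and NCI-N87 were again not separable for JUN (log2FC −0.25 ± 0.13, p.adjust = 0.0879). JUND, the JUN gene that is least dependent on growth factors, had its lowest level in MKN7 (73.2 ± 2.70 CPM) and its highest in MKN1 (231 ± 38.7 CPM), close to NCI-N87 (203 ± 21.9 CPM; log2FC of MKN1 vs. NCI-N87 0.19 ± 0.12, p.adjust = 0.147). The order of JUN was the same at 24 h, with means of 378 ± 34.1, 273 ± 23.9, 90.0 ± 11.5 and 45.5 ± 4.64 CPM in Hs746T, MKN7, NCI-N87 and MKN1. At that time Hs746T and MKN7 differed in JUN by less than the fold limit (log2FC of MKN7 vs. Hs746T −0.47 ± 0.13). FOSL2 at 24 h formed a higher pair, MKN7 and NCI-N87 (log2FC 0.10 ± 0.14, p.adjust = 0.55), and a lower pair, MKN1 and Hs746T (log2FC 0.13 ± 0.14, p.adjust = 0.432). ATF3 was highest in MKN1 at both times (37.0 ± 7.50 CPM at 4 h) and lowest in Hs746T (8.59 ± 3.96 CPM). MKN1 exceeded MKN7 in ATF3 at 4 h (log2FC 1.24 ± 0.36, p.adjust = 0.00177), a call that was lost without replicate 2 (log2FC 0.93, p.adjust = 0.107).

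Of 72 member comparisons between untreated lines, 46 passed the test, where the lines differed in a large share of all genes. MKN1 and MKN7 differed in 4 of 6 members at 4 h and 6 at 24 h (38.4% and 40.2% of all genes), MKN1 and NCI-N87 in 3 and 2 (43.8% and 43.7%), and MKN1 and Hs746T in 4 and 5 (46% and 45.3%). MKN7 and NCI-N87 differed in 4 and 4 members (41.4% and 42.3%), MKN7 and Hs746T in 3 and 2 (43% and 43.9%), and NCI-N87 and Hs746T in 5 and 4 (46.4% and 46.7%). The member counts thus lay on either side of the share over all genes, and MKN1 and MKN7 at 24 h were the pair in which all 6 measured members differed.

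Divided by merged exon length, FOSL1 was the most abundant FOS gene in every untreated line. At 4 h it had 678 CPM per kb in Hs746T, where FOSL2 had 13.6 and FOS 1.91 CPM per kb. In NCI-N87 the FOSL1 mean of 66.4 CPM per kb stood nearest to FOSL2, at 51.9 CPM per kb. Among the measured JUN genes, JUN exceeded JUND per kb at 4 h in Hs746T (127 against 87.6 CPM per kb) and MKN7 (73.0 against 39.3). JUND exceeded JUN in MKN1 (124 against 24.4) and NCI-N87 (109 against 29.1).

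Afatinib was compared with untreated cells. Because these controls had no drug vehicle, drug and vehicle cannot be told apart in this comparison. FOSL1 fell at 4 h and 24 h in MKN1, MKN7 and NCI-N87, FOS fell at both times in MKN1 and NCI-N87 and at 24 h in MKN7, and no member passed the test in Hs746T. FOSL2, JUN and JUND did not pass the test in any line. In MKN1, 2 of the 6 measured members fell at 4 h and 3 at 24 h, where 0.439% and 1.02% of all genes did. In MKN7, 1 fell at 4 h and 2 at 24 h, against 1.59% and 3.25% of all genes. In NCI-N87, 2 fell at each time, against 1.22% and 11.5% of all genes. The treatments of a line and time share their untreated controls. In bulk RNA, fewer cells with a transcript and less of it per cell cannot be told apart.

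FOSL1 fell furthest in NCI-N87. There it went from 109, 115 and 152 CPM in untreated cells to 13.0, 14.6 and 20.7 CPM after 4 h of afatinib, and from 79.3, 88.6 and 91.6 CPM to 3.98, 5.37 and 5.50 CPM after 24 h. All treated libraries lay far below all controls (log2FC −2.96 ± 0.18, p.adjust = 3.78e-10 at 4 h; −4.16 ± 0.20, p.adjust = 2.05e-13 at 24 h). The fall was larger at 24 h than at 4 h, with a difference of −1.20 ± 0.25 in log2FC (p.adjust = 0.000674), the only one of 24 member differences between times of afatinib that passed. Over all genes 0.575% (MKN1), 4.67% (MKN7), 15% (NCI-N87) and 0% (Hs746T) passed the same test. For EGF no member response passed it between the times in edgeR or DESeq2 in MKN1 or Hs746T (3 of 12 had an unadjusted p below 0.05), where 2.7% and 0% of all genes did.

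In MKN7 FOSL1 went from 509, 584 and 677 CPM to 94.7, 115 and 117 CPM at 4 h and from 231, 265 and 517 CPM to 35.7, 48.5 and 67.6 CPM at 24 h. The groups did not overlap at either time (log2FC −2.47 ± 0.32, p.adjust = 7.81e-06; −2.75 ± 0.32, p.adjust = 6.54e-07). In MKN1 it went from 379, 405 and 420 CPM to 65.3, 91.4 and 98.8 CPM at 4 h and from 69.3, 73.8 and 125 CPM to 9.33, 15.9 and 18.2 CPM at 24 h, again without overlap (log2FC −2.25 ± 0.28, p.adjust = 2.02e-06; −2.65 ± 0.29, p.adjust = 1.15e-07). These 6 FOSL1 calls held under every alternative that was run. In Hs746T FOSL1 stood at 944, 1554 and 1850 CPM after 4 h of afatinib beside 881, 1478 and 1481 CPM untreated (log2FC 0.22 ± 0.38, p.adjust = 0.956). The lowest treated library lay within the range of the controls and the others lay above it. Each treated library lay above the untreated library of the same number.

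**Figure D2:**
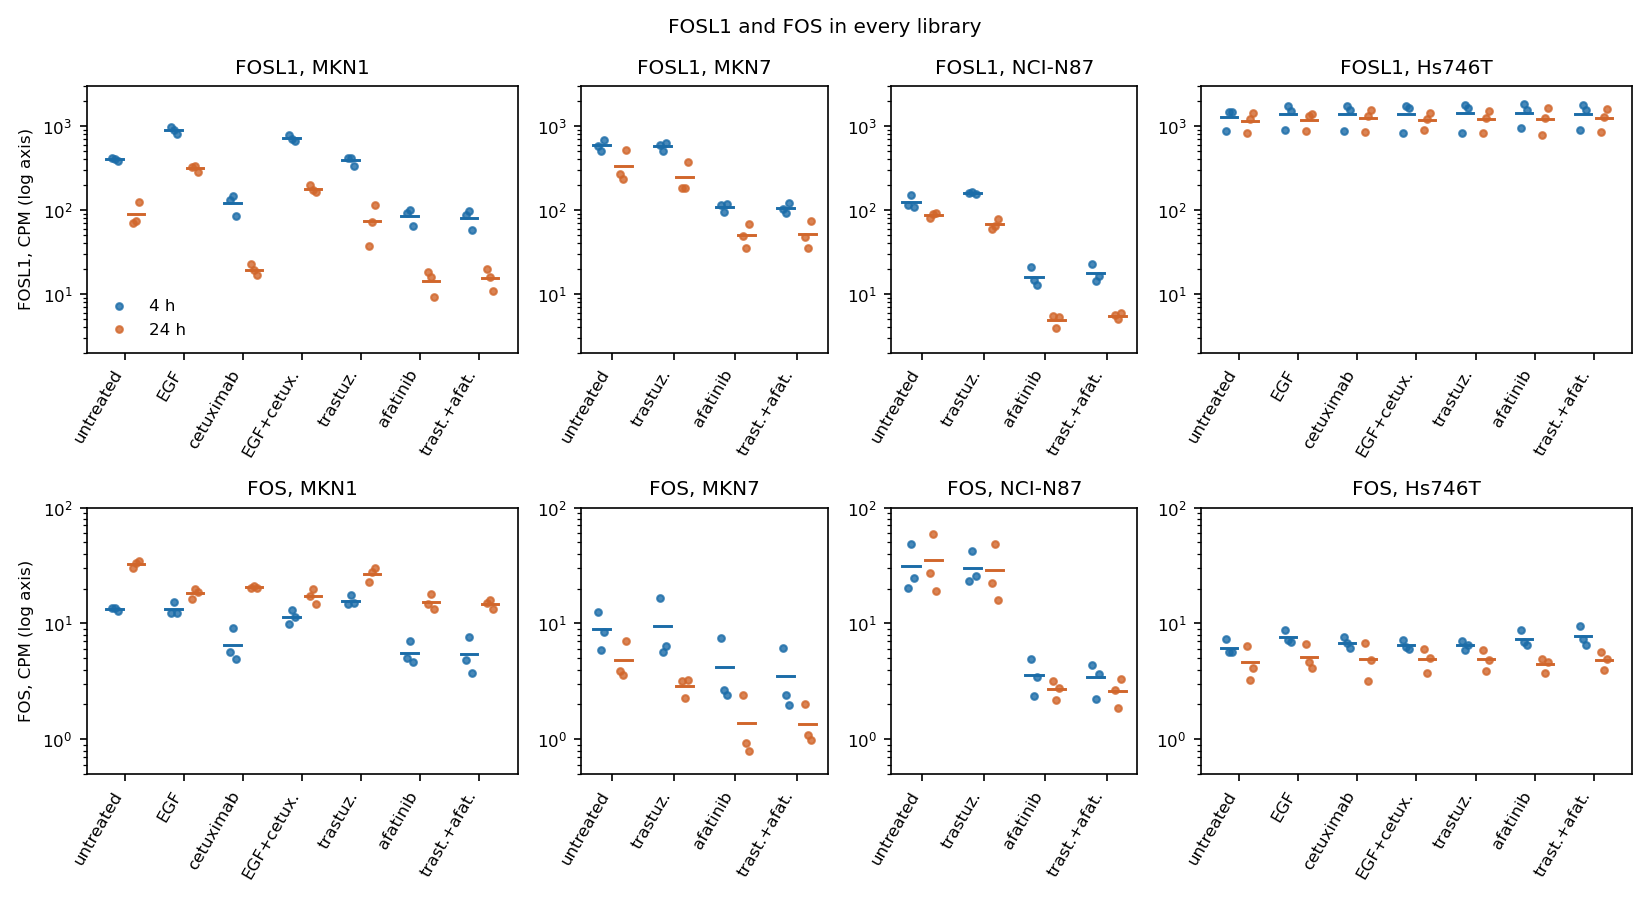
FOSL1 and FOS in single libraries of the 4 lines, in CPM on a log axis, for every treatment at 4 h (blue) and 24 h (orange). Points are libraries, 3 per group, and short lines are means. FOSL1 drops with afatinib in MKN1, MKN7 and NCI-N87, down to 3.98 CPM in NCI-N87 at 24 h, and stays between 778 and 1850 CPM in all 42 Hs746T libraries.

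FOS itself fell most in NCI-N87. Its level went from 20.3, 24.9 and 48.6 CPM to 2.37, 3.48 and 4.91 CPM at 4 h and from 18.9, 27.4 and 58.8 CPM to 2.18, 2.8 and 3.2 CPM at 24 h. The untreated libraries spread widely, with replicate 2 highest, but none came near the treated ones (log2FC −3.12 ± 0.46, p.adjust = 3.73e-05; −3.72 ± 0.47, p.adjust = 6.37e-07). Without replicate 2 the log2FC was −2.43 at 4 h and −2.96 at 24 h, and both calls held. In MKN1 FOS went from 12.7, 13.5 and 13.7 CPM to 4.62, 5.07 and 7.06 CPM at 4 h and from 30.3, 32.9 and 34.7 CPM to 13.3, 14.8 and 17.9 CPM at 24 h. These groups did not overlap (log2FC −1.26 ± 0.20, p.adjust = 9.55e-05; −1.11 ± 0.19, p.adjust = 5.91e-05). The 4 h call in MKN1 was lost without replicate 1 (log2FC −1.19, p.adjust = 0.0523) and the 24 h call without replicate 3 (log2FC −0.97, below the fold limit). The values changed little in both cases, and each call held under 8 of 9 alternatives.

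MKN7 had the least FOS of the lines that responded. At 24 h it went from 3.59, 3.91 and 7.09 CPM to 0.793, 0.923 and 2.41 CPM (log2FC −1.85 ± 0.55, p.adjust = 0.0079). The call was lost without replicate 2 (log2FC −1.80, p.adjust = 0.0524) or replicate 3 (log2FC −1.22, p.adjust = 0.172), and the log2FC was −2.66 without replicate 1. At 4 h 2 of the treated libraries lay below all controls but the third overlapped them (log2FC −1.14 ± 0.50, p.adjust = 0.116). Same-numbered MKN7 libraries deviated together, and with the replicate number as a block 5 member calls were made for afatinib in MKN7 instead of 3. The calls added were FOS at 4 h (log2FC −1.21 ± 0.30, p.adjust = 0.0029) and ATF3 at 24 h (log2FC 1.02 ± 0.24, p.adjust = 0.000881).

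The JUN genes moved less. JUN was lower with afatinib in MKN1, MKN7 and NCI-N87 at both times, with log2FC between −0.84 and −0.29, and no value passed the fold limit. The greatest shift was in NCI-N87 at 24 h, from 76.8, 96.5 and 96.9 CPM to 41.7, 51.3 and 61.7 CPM without overlap (log2FC −0.84 ± 0.14, p.adjust = 1.6e-05). JUND was higher on average in the treated groups of these lines, by 0.24 to 0.64, although in MKN1 at 4 h treated and untreated libraries overlapped. In MKN7 at 4 h it went from 71.2, 72.1 and 76.2 CPM to 111, 113 and 127 CPM, a shift without overlap that also stayed below the fold limit (log2FC 0.64 ± 0.09, p.adjust = 1.49e-05). FOSL2 varied between −0.28 and 0.29 in log2FC over the 3 lines and both times.

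**Figure D3:**
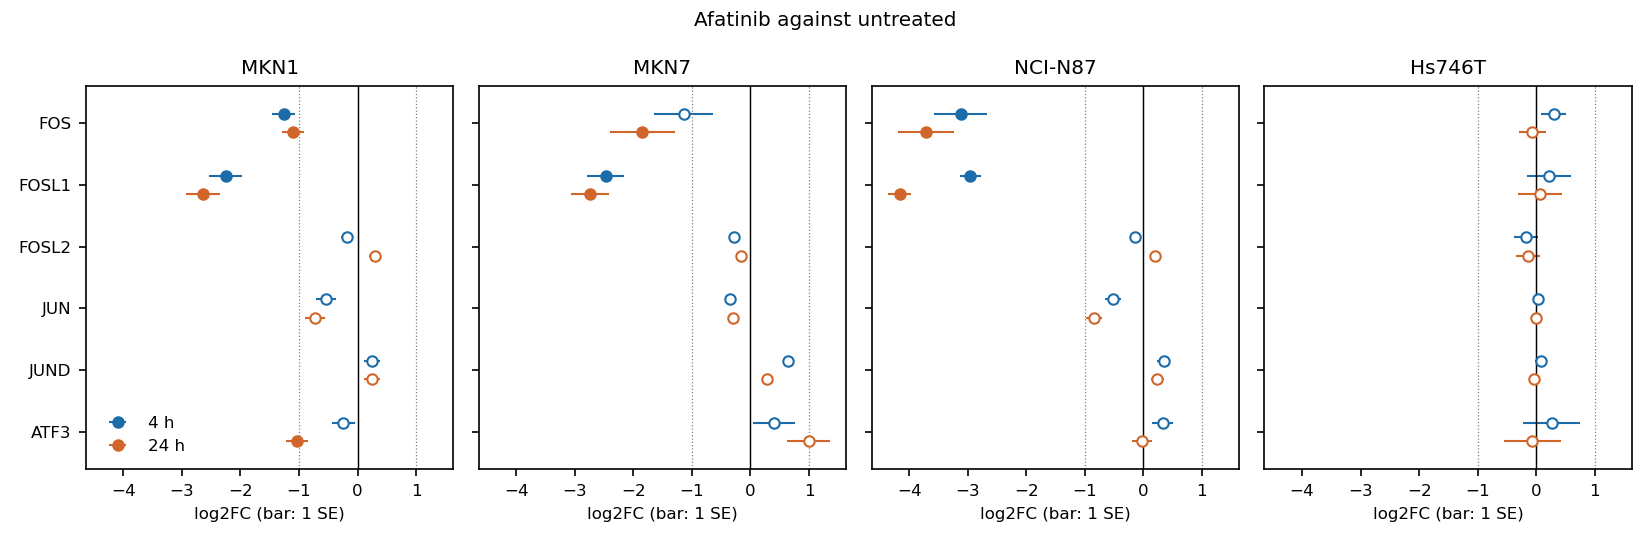
Log2 fold change of afatinib vs. untreated for the 6 measured members in each line, at 4 h (blue) and 24 h (orange), with bars of 1 SE from the edgeR fit. Filled points passed the test, open points did not, and dotted lines mark the fold limit of 1. The FOSL1 points lie between −2.25 and −4.16 in MKN1, MKN7 and NCI-N87 and at 0.22 and 0.07 in Hs746T.

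ATF3 shifted in opposite directions in MKN1 and MKN7. In MKN1 it fell at 24 h, from 40.5, 42.5 and 48.9 CPM to 20, 20.2 and 24.9 CPM. The groups were well apart, but the log2FC of −1.03 ± 0.20 (p.adjust = 0.000183) lay just past the fold limit and fell short of it with scaling by library size alone (−0.95) or without replicate 1 (−0.91). In MKN7 at 24 h ATF3 went the other way, from 8.44, 9.7 and 11 CPM to 18.4, 19.8 and 20.2 CPM, with a log2FC of 0.99 ± 0.36 (p.adjust = 0.0252) just short of the limit. The difference between these effects passed its own test (2.02 ± 0.51 in log2FC, p.adjust = 0.00465). It was lost without replicate 2 (p.adjust = 0.0798) or replicate 3 (p.adjust = 0.117). NCI-N87 showed neither shift at 24 h (log2FC −0.02 ± 0.17, p.adjust = 0.928).

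The afatinib response of the other lines was tested against that of MKN1, and 6 of 36 member differences passed. Over all genes 0.473% (MKN7), 0.565% (NCI-N87) and 0.245% (Hs746T) passed at 4 h, and 3.6%, 13.4% and 1.34% at 24 h. FOS fell further in NCI-N87 than in MKN1 at 24 h, by −2.59 ± 0.50 in log2FC (p.adjust = 1.95e-05). This difference held under every alternative, with a value of −1.76 (p.adjust = 0.0158) without replicate 2. With the replicate block, 3 more differences from MKN1 passed: FOS in Hs746T at 4 h (1.52 ± 0.36, p.adjust = 0.00414) and 24 h (1.03 ± 0.36, p.adjust = 0.0368), and ATF3 in NCI-N87 at 24 h (1.05 ± 0.22, p.adjust = 5.33e-05).

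Afatinib added to trastuzumab gave a second comparison in libraries that the first did not use. No label names a vehicle in the trastuzumab libraries, so drug and vehicle cannot be told apart here either. FOSL1 fell again in MKN1 (log2FC −2.28 ± 0.28 at 4 h and −2.30 ± 0.29 at 24 h), MKN7 (−2.44 ± 0.32 and −2.25 ± 0.32) and NCI-N87 (−3.17 ± 0.18 and −3.64 ± 0.19), with p.adjust of 1.18e-05 or less. In MKN1 at 24 h the trastuzumab libraries spread from 37.6 to 114 CPM, and without replicate 3 the log2FC was −1.64. FOS fell in NCI-N87 from 23.1, 25.8 and 42.1 CPM to 2.22, 3.65 and 4.39 CPM at 4 h (log2FC −3.17 ± 0.47, p.adjust = 3.13e-05) and at 24 h (log2FC −3.49 ± 0.47). Without replicate 2 the 24 h value was −2.71. FOS also fell in MKN1 at 4 h, from 14.7, 14.9 and 17.5 CPM to 3.73, 4.80 and 7.67 CPM (log2FC −1.55 ± 0.20, p.adjust = 3.27e-06). The number of the 6 members that fell at 4 h and 24 h was 2 and 1 in MKN1, 1 and 1 in MKN7, and 2 and 2 in NCI-N87, beside 0.495% and 1.02%, 1.22% and 2.16%, and 1.64% and 10.8% of all genes. In MKN7 4 calls were made with the replicate block instead of 2, FOS being added at both times (log2FC −1.41 ± 0.30 and −1.17 ± 0.36). ATF3 in MKN1 at 24 h had a log2FC of −0.96 ± 0.20, below the fold limit. JUN was lower in all 3 lines at both times, with log2FC between −0.75 and −0.31, and none of these values reached the limit. JUND was higher on average by 0.14 to 0.47, but the groups overlapped in MKN1 at both times, MKN7 at 24 h and NCI-N87 at 4 h. Its greatest shift was again in MKN7 at 4 h, from 81.8 to 91.1 CPM up to at least 108 CPM in every treated library (log2FC 0.47 ± 0.09, p.adjust = 0.00049).

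Trastuzumab alone moved no member past the test. Over MKN1, MKN7 and NCI-N87 the 36 member values lay between −0.74 and 0.44 in log2FC, with a lowest p.adjust of 0.987 in edgeR, and 2 of them had an unadjusted p below 0.05. Trastuzumab with afatinib against afatinib alone gave values between −0.22 and 0.15, none with an unadjusted p below 0.05. In these comparisons 0% of all genes passed in edgeR, and DESeq2 called no member either. The p-values come from the fit without the replicate block, and with the block no member was called.

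In Hs746T, over all 7 treatment comparisons at both times, none of 84 member comparisons passed the test in edgeR or DESeq2, and none had an unadjusted p below 0.05. The log2FC values lay between −0.46 and 0.38. For FOSL1 the SE was 0.38 because replicate 1 was lower throughout, at 778 to 944 CPM beside 1204 to 1850 CPM in replicates 2 and 3. Leaving out any replicate or adding the replicate block gave 0 calls as well. The unadjusted p-values come from the fit without the block. Same-numbered Hs746T libraries deviated together (mean correlation 0.716 at 4 h and 0.842 at 24 h), and that fit counts their shared shift as spread. The absence of small p-values there therefore does not show the absence of a response.

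EGF and cetuximab were compared in MKN1 to follow the EGFR alone. FOSL1 rose with EGF from 379, 405 and 420 CPM to 798, 889 and 984 CPM at 4 h and from 69.3, 73.8 and 125 CPM to 284, 325 and 338 CPM at 24 h. All EGF libraries exceeded all controls (log2FC 1.16 ± 0.27, p.adjust = 0.00513; 1.84 ± 0.28, p.adjust = 4.4e-06). The 4 h call was lost without replicate 1 (p.adjust = 0.0936) or replicate 2 (p.adjust = 0.114), with little change in its value (1.11 and 1.18). FOSL1 was the 1 member of 6 that rose at each time, where 1.23% and 2.11% of all genes rose. JUN went from 81.1, 82.6 and 95.7 CPM to 164, 169 and 176 CPM at 4 h, just below the fold limit (log2FC 0.98 ± 0.17, p.adjust = 0.000113), and its value at 24 h was 0.83 ± 0.17. FOS had 12.3, 12.4 and 15.3 CPM in the EGF libraries at 4 h (log2FC 0.01 ± 0.19), and was lower at 24 h with 16.1, 18.5 and 19.8 CPM beside 30.3, 32.9 and 34.7 CPM (log2FC −0.83 ± 0.19, p.adjust = 0.000888). JUND (−0.69 ± 0.13) and FOSL2 (−0.47 ± 0.09) were also lower with EGF at 24 h, within the fold limit. In Hs746T the EGF response of FOSL1 at 24 h was smaller than in MKN1, by 1.77 ± 0.44 in log2FC (p.adjust = 0.00434), the only one of 12 such member differences that passed, where 0.486% of all genes differed at 4 h and 3.15% at 24 h. This call was lost without replicate 2 (1.63, p.adjust = 0.235), and with the replicate block the 4 h difference passed as well (1.04 ± 0.28, p.adjust = 0.0108).

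Cetuximab lowered the same gene in MKN1. FOSL1 went to 86.0, 131 and 147 CPM at 4 h and to 16.7, 19.3 and 22.6 CPM at 24 h, below all controls at both times (log2FC −1.73 ± 0.28, p.adjust = 0.000243; −2.22 ± 0.29, p.adjust = 1.29e-05). FOS fell at 4 h to 4.92, 5.64 and 9.08 CPM (log2FC −1.03 ± 0.20, p.adjust = 0.00235), but this call was lost with library size scaling (−0.96), without replicate 1 (p.adjust = 0.293) or 3 (p.adjust = 0.118), and with only the compared groups in the fit (p.adjust = 0.0934). Thus 2 members fell at 4 h and 1 at 24 h, where 0.257% and 0.328% of all genes fell. JUN (−0.82 ± 0.17, p.adjust = 0.0019) and ATF3 (−0.71 ± 0.19, p.adjust = 0.0155) were lower at 24 h within the fold limit. In the presence of EGF, cetuximab moved no member past the test in edgeR or DESeq2 (0 of 6 had an unadjusted p below 0.05 at 4 h and 3 of 6 at 24 h), where 0.126% of all genes passed at 4 h and 0.156% at 24 h. FOSL1 had 164, 174 and 200 CPM with EGF and cetuximab at 24 h beside 284, 325 and 338 CPM with EGF, groups that did not overlap but had a log2FC of −0.83 ± 0.27 (p.adjust = 0.191).

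**Figure D4:**
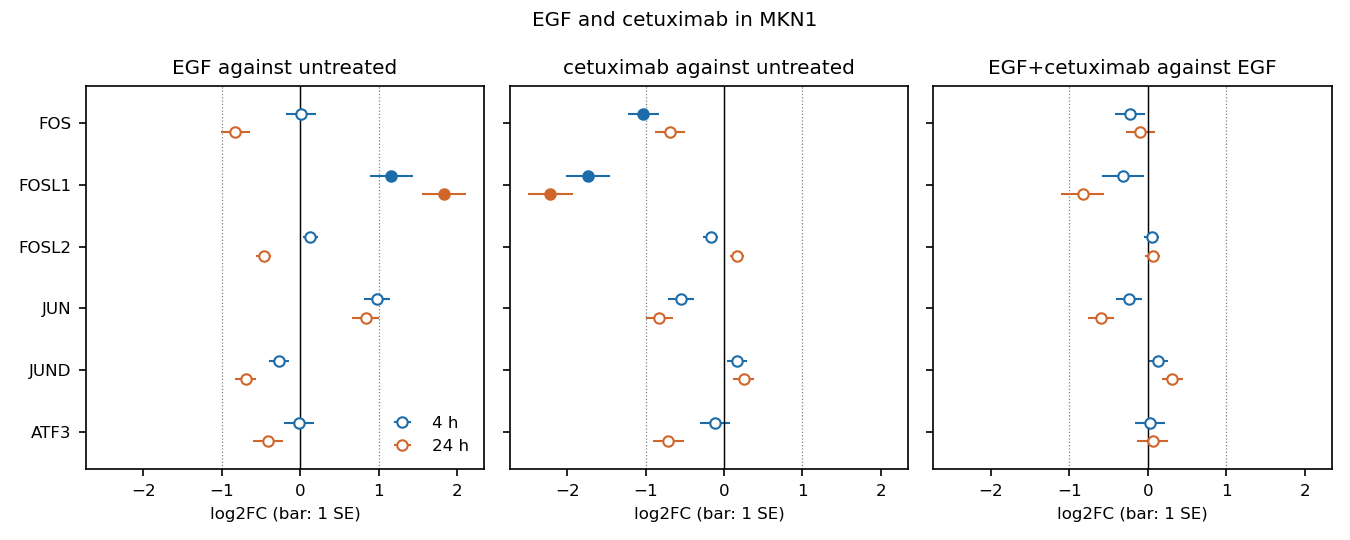
Log2 fold change of the 6 measured members in MKN1 at 4 h (blue) and 24 h (orange), with bars of 1 SE from the edgeR fit. The panels are EGF vs. untreated, cetuximab vs. untreated, and EGF with cetuximab vs. EGF, with 3 libraries per group. Filled points passed the test, open points did not, and dotted lines mark the fold limit of 1. The FOSL1 points lie at 1.16 (4 h) and 1.84 (24 h) with EGF and at −1.73 and −2.22 with cetuximab.

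Untreated MKN1 cells themselves changed between 4 h and 24 h. FOS rose from 12.7, 13.5 and 13.7 CPM to 30.3, 32.9 and 34.7 CPM and FOSL1 fell from 379, 405 and 420 CPM to 69.3, 73.8 and 125 CPM, both without overlap (log2FC 1.28, p.adjust = 3.78e-06; −2.19, p.adjust = 2.87e-07). FOS and FOSL1 thus moved in opposite directions in these cells, and they were the 2 members of 6 that passed, where 8.06% of all genes passed. JUN had a log2FC of −0.95, within the fold limit. In untreated MKN7, NCI-N87 and Hs746T no member passed between the times in edgeR or DESeq2 (3, 3 and 2 of 6 had an unadjusted p below 0.05), where 1.76%, 0.0472% and 0.129% of all genes did.

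The make-up of the FOS group was described as the share of each member in the sum of FOS, FOSL1 and FOSL2 per kb, without a test. In Hs746T FOSL1 held 97.6% ± 1.15 of that sum in untreated cells at 4 h and 98.0% ± 1.05 with afatinib (SD, n = 3). In MKN1 it held 94.1% ± 0.283 at 4 h and 81.4% ± 4.07 with afatinib, and at 24 h 66.8% ± 5.91 untreated, 92.0% ± 1.04 with EGF, 33.4% ± 3.28 with cetuximab and 27.2% ± 7.04 with afatinib. FOSL2 held most of the remainder in these MKN1 groups, with 55.8% ± 8.41 in the afatinib libraries at 24 h. In MKN7 the FOSL1 share went from 88.7% ± 2.06 to 64.2% ± 4.69 at 4 h and from 78.4% ± 7.37 to 40.0% ± 6.62 at 24 h. In NCI-N87 it went from 51.7% ± 1.93 to 15.1% ± 2.71 and from 47.5% ± 4.02 to 5.2% ± 0.805. FOSL2 was the largest of these measured FOS genes in all 6 afatinib libraries of NCI-N87 and in 3 of 6 in MKN1 and in MKN7. FOSL1 was the largest in all 6 untreated libraries of MKN1, MKN7 and Hs746T and in 5 of 6 in NCI-N87.

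**Figure D5:**
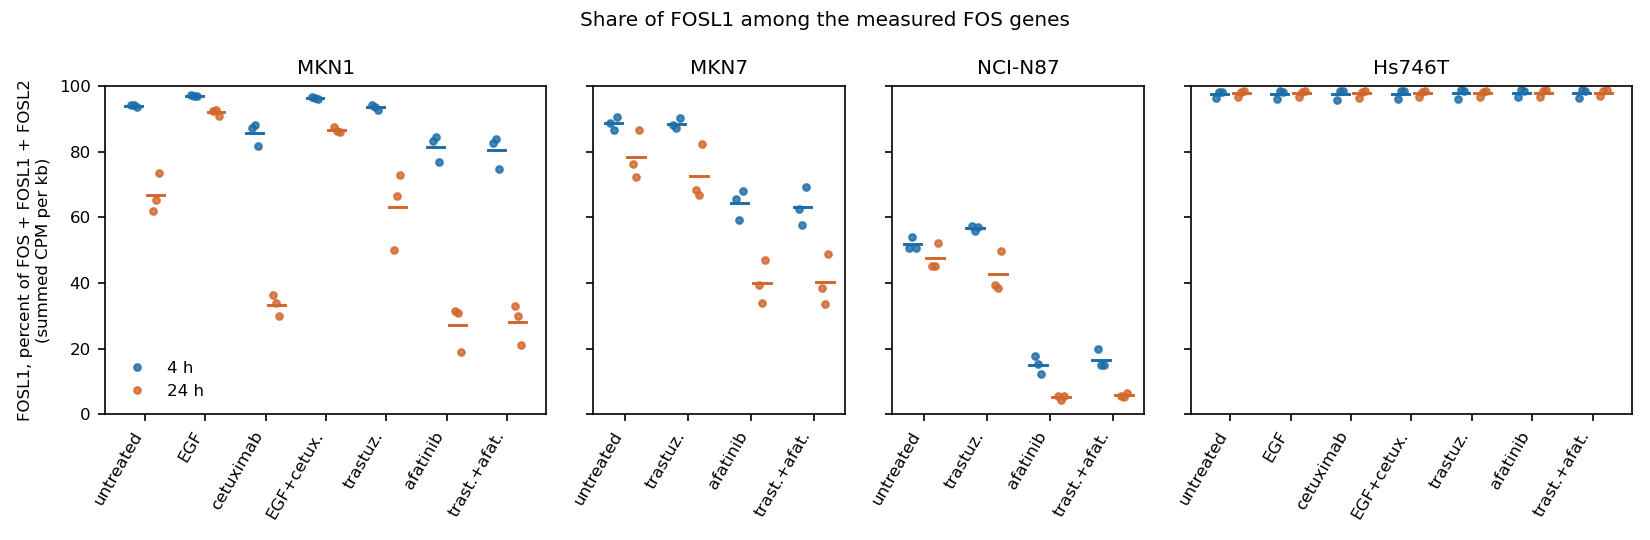
Share of FOSL1 in the summed CPM per kb of FOS, FOSL1 and FOSL2, in percent, by line and treatment at 4 h (blue) and 24 h (orange). Points are libraries, 3 per group, and short lines are means. The share is near 98% in all Hs746T groups and falls to a mean of 5.2% in NCI-N87 with afatinib at 24 h.

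The genes whose pattern was most like that of a member were sought among 11827 genes, by Pearson correlation of log2 CPM over all libraries after subtracting the mean of each line and time. Libraries of a group share their treatment and depth varied between them, so these values describe likeness and carry no p. FOSL1 was most like DUSP6 (r = 0.969), a phosphatase of ERK, followed by MYC (0.957), SLC25A25 (0.955), TOP1 (0.949) and DUSP7 (0.947). FOS was most like TLNRD1 (0.867), DUSP5 (0.855) and EGR1 (0.849), then EPHA2 (0.831) and TNFRSF10A (0.824). JUN was most like SOWAHC (0.918), ERRFI1 (0.908), CHST15 (0.900), HBEGF (0.898) and DYRK2 (0.889), of which ERRFI1 encodes an inhibitor of EGFR and HBEGF an EGFR ligand. ATF3 had weaker neighbours, led by BAMBI (0.783), SCARA3 (0.747) and A4GALT (0.742), then PTTG1IP and ITM2C (both 0.727). Among the members, FOSL1 went with JUN (r = 0.847) and FOS (0.722), ran against JUND (−0.714) and was unrelated to ATF3 (−0.078).

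Other genes of the pathway were counted from fixed lists, and each count is read against the share of all genes called the same way. The shares of all genes that fell with afatinib are those given above for the members. Of all genes, 0.242% in MKN1, 1.81% in MKN7 and 2.03% in NCI-N87 rose with afatinib at 4 h, and 3.17%, 10.3% and 18.1% rose at 24 h. With EGF in MKN1 0.247% and 6.24% of all genes fell at 4 h and 24 h, and with cetuximab 1% rose at 24 h. Of 15 other bZIP partners, 12 to 14 were tested in the lines that responded, and MAFF, a small MAF protein, fell with afatinib in MKN1 (log2FC −1.81 and −2.11), MKN7 (−1.65 and −1.84) and NCI-N87 (−1.66 and −1.78) at 4 h and 24 h. MAFF rose with EGF in MKN1 (1.05 and 1.16), whereas JDP2, which forms repressive pairs with JUN proteins, fell there (−1.13 and −1.68) and rose with afatinib in MKN7 (1.11 and 1.04). The JDP2 calls stood beside 0.247% and 6.24% of all genes falling with EGF and 1.81% and 10.3% rising in MKN7. How many genes of this list passed in each comparison is not given here, so MAFF and JDP2 do not describe the list. Of 19 kinases and SRF factors upstream of FOS and JUN, none passed at 4 h with afatinib in edgeR, while 3 in MKN1, 7 in MKN7 and 4 in NCI-N87 had an unadjusted p below 0.05. At 24 h none passed in MKN1 (9 had an unadjusted p below 0.05), 1 fell in MKN7, ELK3 (−1.20), and 2 rose in NCI-N87, MAPK10 (2.18) and RPS6KA2 (1.24). With 3.25% of all genes falling in MKN7 and 18.1% rising in NCI-N87 at that time, these counts of 1 and 2 among 19 were near or below the background.

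Of 18 textbook AP-1 target genes, 14 were tested in MKN1 and MKN7 and 12 in NCI-N87. With afatinib 4 fell at 4 h in MKN1, 5 in MKN7 and 5 in NCI-N87, and at 24 h 4 fell and 1 rose in MKN1, 10 fell and 2 rose in MKN7, and 5 fell and 1 rose in NCI-N87. Falls over all genes were at most 1.59% at 4 h, and at 24 h 1.02% in MKN1, 3.25% in MKN7 and 11.5% in NCI-N87. The single riser in NCI-N87 stood beside 18.1% of all genes, and the 2 in MKN7 beside 10.3%. The median log2FC of the list was −0.59, −0.62 and −0.26 at 4 h, where that of all genes was 0.01, 0.01 and 0.02, and −0.70, −1.32 and −0.82 at 24 h beside 0.01, 0.04 and 0.03. CXCL8, a neutrophil chemokine, fell in NCI-N87 (log2FC −4.00 ± 0.40 and −4.70 ± 0.45 at 4 h and 24 h), and CCND1, which encodes cyclin D1, fell in MKN7 (−1.67 ± 0.13 and −2.09 ± 0.13). The matrix protease genes did not move as one: MMP9 fell in MKN7 at 24 h (log2FC −2.99 ± 0.48), while MMP3 rose in NCI-N87 (3.93 ± 0.85) and MMP13 rose in MKN1 (1.75 ± 0.42). With EGF in MKN1 8 of 14 rose at 4 h, among them CXCL8 (1.97 ± 0.26) and LIF (1.75 ± 0.16), and at 24 h 8 rose and 1 fell, MMP13 (−2.44 ± 0.62). Over all genes 1.23% and 2.11% rose with EGF at 4 h and 24 h, and 6.24% fell at 24 h, so the fall of MMP13 alone was near that share. With cetuximab 3 fell at 4 h, and 2 fell and 1 rose at 24 h. Of all genes 0.257% and 0.328% fell with cetuximab at 4 h and 24 h, and 1% rose at 24 h.

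Of 17 other immediate early genes, 16 were tested in MKN1 and MKN7 and 15 in NCI-N87. With afatinib 6, 5 and 6 fell at 4 h in MKN1, MKN7 and NCI-N87 and 8, 5 and 6 fell at 24 h, and none rose. Over all genes 0.439%, 1.59% and 1.22% fell at 4 h and 1.02%, 3.25% and 11.5% at 24 h, so the 6 of 15 in NCI-N87 at 24 h stood against a higher background than the other counts. EGR1, a zinc finger factor induced alongside FOS, fell in MKN1 (log2FC −3.59 ± 0.39 and −4.81 ± 0.41 at 4 h and 24 h), MKN7 (−2.40 ± 0.35 and −4.27 ± 0.40) and NCI-N87 (−4.60 ± 0.56 and −5.15 ± 0.58). With EGF in MKN1 5 of 16 rose at 4 h, with EGR2 at 1.96 ± 0.43, beside 1.23% of all genes. At 24 h EGR2 fell (−1.69 ± 0.41) and MYC rose (1.34 ± 0.23), where 6.24% of all genes fell and 2.11% rose.

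Of 12 integrated stress response genes, the list around ATF3, 11 were tested. None passed in edgeR with afatinib in MKN1 at 4 h or 24 h or in MKN7 at 4 h, where 1, 2 and 3 had an unadjusted p below 0.05. In NCI-N87 CHAC1 (log2FC 1.45 ± 0.39) and SESN2 (1.10 ± 0.25) rose at 4 h, and 4 genes fell at 24 h, among them SLC7A11 (−1.70 ± 0.25), TRIB3 (−1.66 ± 0.30) and PSAT1 (−1.66 ± 0.26), beside 11.5% of all genes. In MKN7 PSAT1 (−1.15 ± 0.21) and TRIB3 (−1.07 ± 0.15) fell at 24 h, the time at which ATF3 stood higher with a log2FC of 0.99.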

How the data were processed

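RNA-seq counts per Ensembl gene were deposited by the authors for each library, as whole numbers without normalization. The submitters' processing notes name Trim Galore, STAR and the hg38 build; the counting program and its strand setting are not given in the sources used here, although the kit kept strand. Total counts ranged from 25832557 to 69434151 per library, no pair of replicates was identical, and intervals cover these libraries only: no label says that replicates were separate cultures. The study's statistics section speaks of independent experiments for its data in general and does not name the libraries. The p-values therefore set a difference against the spread between libraries, part of which may be technical. That spread was estimated over all groups of a fit, not from the compared libraries alone.

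Gene names, lengths and positions came from GENCODE 29, and promoters from RefSeq (GRCh38.p14). Counts were tested in R 4.3.3 with edgeR 4.0.16, by the quasi-likelihood test with TMM scaling, a filter of at least 10 counts in a group and 15 in all, and Benjamini-Hochberg adjustment over all genes. One fit per cell line held all its groups; a joint fit of all libraries compared lines and their responses. To pass the test a gene needed both a log2FC beyond 1 in either direction and an adjusted p under 0.05. Levels are CPM with TMM scaling over all libraries, per kb of merged exon length where genes are compared. Line comparisons are coded first minus second. Alternatives were scaling by library size, DESeq2 1.42.0, other filters, leaving out each replicate number, a replicate block, and only the groups compared. The scripts were tested on simulated counts.

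Same-numbered libraries deviated together, as judged from pairs of a treated and an untreated library of the same line and time. Every correlation of their deviations was above 0.1 in MKN7, NCI-N87 and Hs746T and in MKN1 at 4 h, but not in MKN1 at 24 h (lowest −0.0555). Treated groups were not correlated with each other.

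All 8 members are named. Of other lists the counts and at most 3 called genes per comparison with the largest absolute log2FC are given. No counts of calls are given for the other bZIP partners. For likeness the 5 genes with the highest correlation at a mean log2 CPM above 1 (prior count 2) are given. The members and lists were chosen with earlier results of these data known.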

Additional observations from a re-analysis of the deposited data

Results flagged for a closer look

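Each of the following is a difference between 2 responses that passed its own test in edgeR, with the SE and the p.adjust over all genes. All are differences in log2FC.

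The afatinib response of FOS was more negative in NCI-N87 than in MKN1, by −1.88 ± 0.50 at 4 h (p.adjust = 0.0251) and by −2.59 ± 0.50 at 24 h (p.adjust = 1.95e-05). The 4 h difference was lost without replicate 2 (−0.98, p.adjust = 0.884) and without replicate 3 (−2.05, p.adjust = 0.253), and was −2.48 without replicate 1. The 24 h difference held under each alternative. FOSL1 also responded more strongly in NCI-N87 than in MKN1 at 24 h, by −1.5 ± 0.46 (p.adjust = 0.00791), a call lost without replicate 2 (−1.18, p.adjust = 0.244). Within NCI-N87 the FOSL1 response at 24 h exceeded that at 4 h by −1.20 ± 0.25 (p.adjust = 0.000674), and this held under each of 8 alternatives.

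The FOSL1 response to afatinib in Hs746T lay above that in MKN1 by 2.42 ± 0.44 at 4 h (p.adjust = 0.000482) and by 2.70 ± 0.45 at 24 h (p.adjust = 2.44e-05). The first was lost without replicate 2 (2.44, p.adjust = 0.184) and the second without replicate 3 (2.09, p.adjust = 0.0536), with the value near the original in the first case. The FOSL1 response to EGF at 24 h was higher in MKN1 than in Hs746T by 1.77 ± 0.44 (p.adjust = 0.00434), a call lost without replicate 2 (1.63, p.adjust = 0.235).

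The ATF3 response to afatinib at 24 h was higher in MKN7 than in MKN1 by 2.02 ± 0.51 (p.adjust = 0.00465). It was lost without replicate 2 (2.18, p.adjust = 0.0798) and without replicate 3 (1.92, p.adjust = 0.117).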

How the results depend on the processing

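Of 31 comparisons of the members, 22 kept their count of calls within 1.5 times under every alternative, and no member value with an adjusted p below 0.05 changed sign. Of 26 treatment calls, 20 held throughout. Leaving out each replicate number in turn gave 3 to 5 calls for afatinib in MKN1 (5 as reported), 2 to 5 in MKN7 (3), 3 to 5 for afatinib added to trastuzumab in MKN1 (3), 2 to 4 in MKN7 (2), 1 to 2 for EGF in MKN1 (2), 0 to 1 for time in untreated MKN7 (0), 2 to 6 for the afatinib response between lines (6), 0 to 2 for the EGF response between lines (1), and 0 to 1 for the EGF response between times (0). With the replicate block the calls were 5 for afatinib in MKN7, 4 for afatinib added to trastuzumab in MKN7 and 2 for the EGF response between lines, and the block changed no other count by over 1.5 times. In MKN1 at 24 h not every same-numbered pair of libraries deviated together (mean correlation 0.458, lowest −0.0555). Without a filter on low counts afatinib added to trastuzumab in MKN7 gave 4 calls. Scaling by library size alone shifted the median of all genes by −0.20 to 0.28 in log2FC. The cause of these changes was not tested beyond the smaller number of libraries when a replicate is left out. The fit of only the groups compared was not run for differences between times. FOSB and JUNB could not be tested, and a shift under 1 on the log2 scale was not called whatever its p.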
